A study of Mus musculus with 8 samples.

Results

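Fut4, Gm9994 and Pgap1 are 3 genes that act on sugar chains or on lipid anchors of the cell surface. They were taken by symbol, 3 of the 119 genes of a small intestinal (SI) RNA-seq table, and all 3 were found. The table held no other genes than those that the study had called different between its 2 genotypes on these same libraries, so no test here is independent evidence of a difference. Whole SI tissue of C57BL/6 mice was compared between 4 wild type (WT) libraries and 4 libraries of Vil-cre mediated Smarcad1 knockout (KO) animals, with no treatment and no age given for either group. Smarcad1 is a chromatin remodeler. In the KO, Cre recombinase driven by the Villin promoter acts in the intestinal epithelium on loxP sites within Smarcad1, in mice derived from 1 targeted ES cell line. The cells below the epithelium keep the gene, and the deposited tissue held both. In such bulk tissue, fewer cells of a type and less RNA per cell cannot be told apart.

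The glycans and glycolipids of the gut surface are built step by step in the Golgi and endoplasmic reticulum, and the enzymes of each step set which terminal sugars the lumen and its microbes meet. Fut4 is a fucosyltransferase that adds fucose to N-acetylglucosamine in the Lewis x structure, an epitope also known as CD15 on myeloid cells and SSEA-1 on stem cells. Gm9994 is an older name of Gal3st2b, a galactose-3-O-sulfotransferase, which places sulfate on terminal galactose of glycans such as those of mucins. Pgap1 is a deacylase of the endoplasmic reticulum that removes the acyl chain from the inositol of newly attached glycosylphosphatidylinositol (GPI) anchors, a step before anchored proteins leave for the surface.

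Gm9994 belongs to a tandem family, which bears on which reads can be assigned to it. On GRCm38 it lay at chr1:93918437-93941239 on the plus strand as deposited (ENSMUSG00000093805), which spans its coding part from start to stop codon, introns included. By GENCODE, which places the whole gene at chr1:93918311-93942650, Gal3st2 lay upstream at chr1:93861306-93876494, 41.8 kb away, Gal3st2c lay downstream at chr1:93990509-94017147, 47.9 kb away, and the unprocessed pseudogene Gm18666 lay 1.54 kb upstream of it. All 3 coding copies had a coding sequence of 1188 bases in GENCODE release M21. Gal3st2b and Gal3st2 differed at 6 of these bases (99.5% identity), and Gal3st2b and Gal3st2c at 24 (98.0%). The 90 coding bases with the most differences among the copies, bases 964 to 1053 from the start codon, are shown to set the copies side by side, with capitals at the positions where any copy differs.

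Gal3st2b: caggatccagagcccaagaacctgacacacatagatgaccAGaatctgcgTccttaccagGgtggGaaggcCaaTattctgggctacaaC
Gal3st2: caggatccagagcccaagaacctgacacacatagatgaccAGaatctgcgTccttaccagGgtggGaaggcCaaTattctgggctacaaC
Gal3st2c: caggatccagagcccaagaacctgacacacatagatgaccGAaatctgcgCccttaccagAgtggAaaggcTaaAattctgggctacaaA

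In this window Gal3st2c carried 8 differences from Gal3st2b and Gal3st2 carried 0. A Gal3st2b read within the window could be told from Gal3st2c only where it covers a difference, and not from Gal3st2. The longest coding stretch without a difference was 569 bases between Gal3st2b and Gal3st2, and 265 bases between Gal3st2b and Gal3st2c. Over the whole Gal3st2b transcript, 84.3% of all 50-base windows and 74.0% of all 100-base windows occurred exactly in a transcript of another gene. Within the deposited span these shares were 87.2% and 75.9%. The authors counted only uniquely mapped reads, so reads that match a copy equally well should not add to the Gm9994 values. How reads were split among the copies is uncertain. These shares cover the spliced transcript only. The introns were not compared with those of the copies, and it is unknown if intronic reads entered the counts, so which stretches the values rest on is not known. Neither Gal3st2 nor Gal3st2c was among the 119 genes. For Fut4 and Pgap1, 0 of 4025 and 0 of 10534 windows of 50 bases were shared with another gene.

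The Fut4 and Pgap1 transcripts shared no 50-base window with annotated transcripts of other genes, and the genome was not searched for further copies. Fut4 lay at chr9:14748459-14752122 on the minus strand (ENSMUSG00000049307), a gene with 1 exon, so that its deposited span of 3664 bp was 100% exonic. Pgap1 lay at chr1:54473000-54557684 on the minus strand (ENSMUSG00000073678), with 27 exons that filled 12.5% of its span of 84685 bp. An entry of unsettled status (TEC biotype), Gm36955, overlaps Pgap1 on the same strand at chr1:54518610-54520270, and reads there cannot be told apart. No other gene of the table lay within 1 Mb of any of the 3. The RefSeq starts differed in base composition. The 250 bases before the start held 16 copies of the dinucleotide CG for Fut4 and 20 for Pgap1, but 2 for Gal3st2b, against a median of 6 over 32851 promoters (CG reads the same on both strands). As many CG were found in 25.4%, 17.9% and 81.2% of all promoters. RefSeq and GENCODE placed the start of Pgap1 at the same base, but not those of Fut4 and Gal3st2b. The Fut4 window (chr9:14752123-14752372) lies within the Fut4 exon of GENCODE, which runs to 14752393. The Gal3st2b window (chr1:93918187-93918436) overlaps the GENCODE gene, which starts at 93918311. For these 2 genes the counts thus describe sequence that GENCODE places wholly or partly within the gene.

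Values are given as RPKM, reads per kilobase of deposited gene span, relative to each library's total of mapped reads. Depth recovered from the values was 56981717 to 78026423 mapped reads per library, and the 119 genes held 0.822 to 1.14% of them. Smarcad1 itself had 0.334 ± 0.0288 RPKM in WT and 0.235 ± 0.0308 in KO (SD, n = 4 each). This was a change of -29.5% with the groups apart (exact two-sided permutation p = 0.0286, the smallest that 4 against 4 libraries allow). Only some exons lie between the loxP sites, and the RPKM covers the whole gene span, so this change does not measure the degree of deletion. The WT libraries fell into pairs. Over the 116 other genes, 73.3% and 71.6% were above the WT mean in WT2 and WT3, but 19.0% and 30.2% in WT1 and WT4, against 39.7 to 57.8% in the KO libraries. The fitted changes of the 3 genes are therefore also given without each pair, an alternative chosen after seeing the data.

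The genotype comparison asked which SI transcripts differ when the epithelium lacks Smarcad1. Of the 3 genes, Gm9994 and Pgap1 were higher in KO and passed the test used here, and Fut4 did not. The study's own test (DESeq2) had called all 3 at a false discovery rate under 0.05. Gm9994 rose 1.97-fold and Pgap1 1.38-fold. Fut4, the highest of them in RPKM, had nearly equal means in both genotypes. The test was limma on log2(RPKM + 0.1) over all 119 genes, with Benjamini-Hochberg adjustment and a threshold of 0.05. It called 79.0% of the listed genes, 48.7% higher and 30.3% lower in KO, and the 2 of 3 called here should be read against that share. The ranges of WT and KO did not overlap for 71.4% of the listed genes, and for 2 of these 3.

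**Figure D1:**
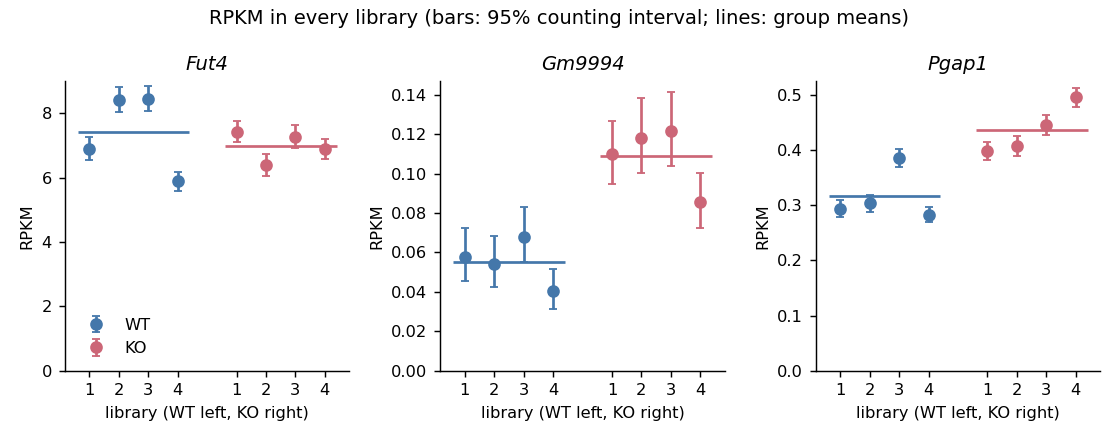
RPKM of Fut4, Gm9994 and Pgap1 (vertical axes, each from 0) in WT libraries 1 to 4 (blue) and KO libraries 1 to 4 (red). Vertical bars are 95% Poisson intervals of the reads behind each value, horizontal lines the group means of 7.42 and 6.997, 0.0551 and 0.109, and 0.316 and 0.437. The groups overlap for Fut4 and are apart for Gm9994 and Pgap1.

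For Gm9994, the sulfotransferase, the WT libraries 1 to 4 gave 0.0577, 0.0543, 0.0680 and 0.0405 RPKM, and the KO libraries 0.110, 0.118, 0.122 and 0.0854 RPKM. Every KO library was above every WT library, with KO4 the lowest KO and WT3 the highest WT value. Behind these values were 65 to 98 reads in WT and 152 to 185 in KO, few enough that counting alone gives a coefficient of variation of 11.4% in WT, against 20.6% observed between libraries. The mean was 0.0551 ± 0.0113 in WT and 0.109 ± 0.0163 in KO (SD, n = 4 each), 1.97-fold higher in KO (exact two-sided permutation p = 0.0286). On the log2(RPKM + 0.1) scale the change was 0.43 ± 0.10 (SE, limma adjusted p = 0.00559). That scale compresses a gene whose level is at the pseudocount. With a pseudocount of 0.01 the change was 0.87 (limma adjusted p = 0.00163), and with limma's voom on the recovered reads it was 0.99 ± 0.26 (SE, adjusted p = 0.00321).

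For Pgap1, the GPI inositol deacylase, the WT libraries gave 0.293, 0.303, 0.386 and 0.283 RPKM, and the KO libraries 0.398, 0.408, 0.445 and 0.496 RPKM. The groups were apart, but WT3 came close to KO1. Between 1416 and 3276 reads stood behind each value. The mean was 0.316 ± 0.0472 in WT and 0.437 ± 0.0443 in KO (SD, n = 4 each), 1.38-fold higher in KO (exact two-sided permutation p = 0.0286), and the fitted change was 0.37 ± 0.11 (SE, limma adjusted p = 0.0140). At a threshold of 0.01 in place of 0.05 it was not called. With all KO values lowered by 0.2 on the log2 scale the change was 0.21 (limma adjusted p = 0.0962), which is no longer past 0.05, nor was it without WT1 and WT4, at 0.27 (limma adjusted p = 0.0773).

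For Fut4, the fucosyltransferase, the WT libraries gave 6.90, 8.43, 8.46 and 5.89 RPKM, and the KO libraries 7.43, 6.39, 7.28 and 6.89 RPKM. WT2 and WT3 were above, and WT4 below, all KO libraries, so that the KO range lay inside the WT range. The mean was 7.42 ± 1.25 in WT and 6.997 ± 0.468 in KO (SD, n = 4 each), a difference of -5.68% (exact two-sided permutation p = 0.514), and the fitted change was -0.07 ± 0.13 (SE, limma adjusted p = 0.616). It was the smallest absolute change among the 119 genes, although the study had called Fut4 different on these libraries. With 1372 to 2012 reads per library, counting gives a coefficient of variation of about 2.4% in each group, against 16.9% observed in WT and 6.69% in KO.

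The Fut4 value depended on how the libraries were scaled and on the WT pairs. Median-ratio factors over the listed genes put the WT libraries at 8.21, 7.98, 7.99 and 6.88 and the KO libraries at 6.85, 6.29, 6.61 and 6.73 scaled RPKM. On that scale WT4 and KO1 were almost equal, but the groups were just apart, and the difference in means was -14.7% (exact two-sided permutation p = 0.0286, limma change -0.22 ± 0.08 SE, adjusted p = 0.0255). Under this scaling 114 of the 119 genes were called, 57 higher and 57 lower in KO, against 58 higher and 36 lower on the RPKM as deposited, and the ranges were apart for 92.4% of the genes. As these factors come from genes selected for a difference, they are not a neutral scale. Without WT2 and WT3 the Fut4 change was 0.13 ± 0.12 (SE, limma adjusted p = 0.354), higher in KO, and without WT1 and WT4 it was -0.27 ± 0.11 (SE, limma adjusted p = 0.0487), lower in KO. The count over all 119 genes moved too, to 58 higher and 16 lower without WT2 and WT3, and to 54 higher and 46 lower without WT1 and WT4. Gm9994 and Pgap1 stayed higher in KO under both scalings and without either pair, and Gm9994 passed the threshold in each.

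**Figure D2:**
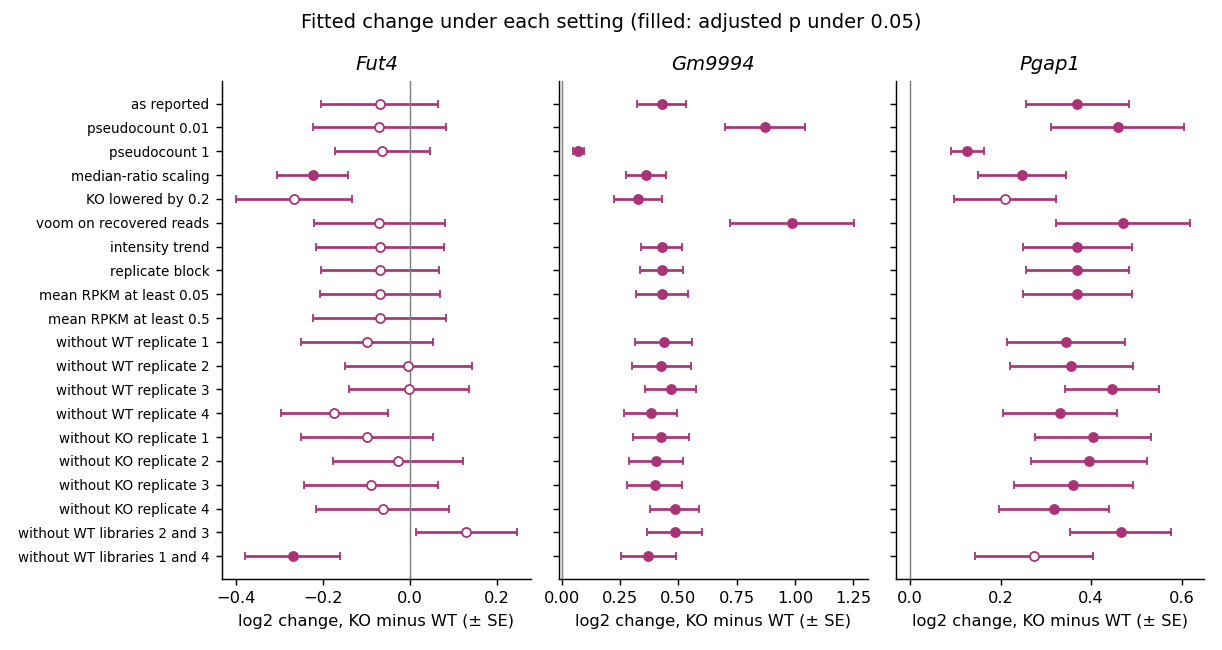
Fitted log2 change, KO minus WT, with its SE (horizontal axes, scaled separately) for Fut4, Gm9994 and Pgap1 under each setting (rows); filled points have a limma adjusted p under 0.05. Fut4 runs from -0.27 to 0.13 across the line at 0, while all values of Gm9994 and Pgap1 lie above it.

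A ratio of 2 genes within 1 library is free of the scaling between libraries. Pgap1 was at 4.25, 3.60, 4.56 and 4.80% of Fut4 RPKM in the WT libraries and at 5.35, 6.39, 6.12 and 7.20% in the KO libraries. The KO shares were all above the WT shares. The mean log2 ratio moved from -4.55 ± 0.18 to -4.005 ± 0.18 (SD, n = 4 each), a 1.46-fold difference (exact two-sided permutation p = 0.0286). Gm9994 was at 0.836, 0.645, 0.803 and 0.688% of Fut4 RPKM in WT and at 1.48, 1.85, 1.67 and 1.24% in KO. These groups were also apart, with log2 ratios of -7.08 ± 0.18 and -6.02 ± 0.25 (SD, n = 4 each), a 2.09-fold difference (exact two-sided permutation p = 0.0286). With the pseudocount of 0.1 added to both genes this log2 difference was 0.50 in place of 1.06, with the same p. Both genes therefore differed from Fut4 in their change between the genotypes, whatever the scale of the libraries.

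Gm9994 against Pgap1 was less clear. Gm9994 was at 19.7, 17.9, 17.6 and 14.3% of Pgap1 RPKM in WT and at 27.6, 29.0, 27.3 and 17.2% in KO. KO4, which had the lowest Gm9994 and the highest Pgap1 of the KO libraries, lay within the WT range, and the other KO libraries lay above it. The log2 ratio was -2.53 ± 0.19 in WT and -2.01 ± 0.35 in KO (SD, n = 4 each), a difference of 0.52 that did not pass the test (exact two-sided permutation p = 0.114). With the pseudocount of 0.1 it was 0.06 (exact two-sided permutation p = 0.629). A larger rise of Gm9994 than of Pgap1 was thus not shown at this number of libraries.

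**Figure D3:**
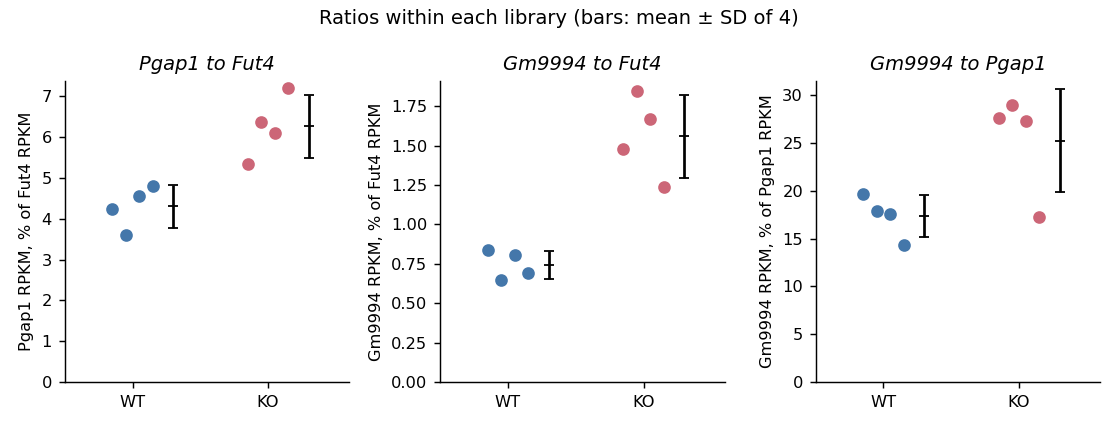
RPKM of one gene as a percentage of another's in the same library (vertical axes, each from 0), for 4 WT (blue) and 4 KO (red) libraries with the mean and SD in black. Pgap1 and Gm9994 relative to Fut4 are higher in every KO library than in any WT library, while for Gm9994 relative to Pgap1 1 KO library lies at 17.2%, within the WT range.

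Levels of the 3 genes can only be ordered per length. Per kilobase of span, Fut4 was first and Gm9994 last in every library. Since introns fill most of the Gm9994 and Pgap1 spans, the reads were also divided by the exon bases within the span, which were 5.31% of it for Gm9994, on the assumption that every read was exonic. On the RPKM scale but per kilobase of exon, Fut4 was at 7.42 ± 1.25 in WT and 6.997 ± 0.468 in KO, Pgap1 at 2.53 ± 0.378 and 3.497 ± 0.355, and Gm9994 at 1.04 ± 0.213 and 2.05 ± 0.308 (SD, n = 4 each). As counted, the order of the 3 levels was the same in both genotypes, and within a genotype the ranges of the 3 genes did not overlap. The Gm9994 level counts uniquely mapped reads only, while its exon bases include stretches shared with its copies. Within the span 87.2% of its 50-base windows were shared, against 0 for Fut4 and Pgap1. Its level may therefore be too low, and its place as the last of the 3 is not settled.

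The wider pathway was read from 7 lists holding 121 genes, of which the table held these 3 and 4 others. It held none of the 25 genes of GPI assembly, no other fucosyltransferase of 18 and no other gene of GPI remodelling among 7. As the table lists selected genes, absence from it says nothing about the level of a gene. All 4 others passed the limma threshold, 3 higher and 1 lower in KO, beside 79.0% of all listed genes, and all 4 had groups apart. B3galtl, the glucosyltransferase that extends O-linked fucose on thrombospondin repeats, rose from 0.256 ± 0.0272 to 0.494 ± 0.0597 RPKM (SD, n = 4 each), 1.93-fold, with a change of 0.74 ± 0.11 (log2, SE, limma adjusted p = 5.70e-04). St3gal6, a sialyltransferase that caps terminal galactose, fell from 0.379 ± 0.0594 to 0.284 ± 0.0202 RPKM, with a change of -0.31 ± 0.11 (log2, SE, limma adjusted p = 0.0288). Without WT2 and WT3 its change was -0.18 (limma adjusted p = 0.156), and its call was also lost without WT2, WT3, KO1 or KO4 alone (limma adjusted p from 0.0514 to 0.0724). The other 3 were called without either pair.

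Both other genes encode proteins held by a GPI anchor, the structure that Pgap1 acts on. Treh, the trehalase of the brush border, rose from 5.57 ± 1.25 to 10.96 ± 2.27 RPKM (SD, n = 4 each), 1.97-fold (log2 change 0.97 ± 0.20 SE, limma adjusted p = 0.00269). Rtn4r, a receptor for myelin inhibitors best known from neurons, rose from 0.154 ± 0.0493 to 0.303 ± 0.0520 RPKM, also 1.97-fold (log2 change 0.68 ± 0.16 SE, limma adjusted p = 0.00496). The table held 2 of the 34 listed GPI-anchored proteins. Over all 59 genes of the table with a higher KO mean, the median ratio of KO to WT was 1.97, so the folds of Gm9994, B3galtl, Treh and Rtn4r were of the size usual in this table, and that of Pgap1 was below it.

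**Figure D4:**
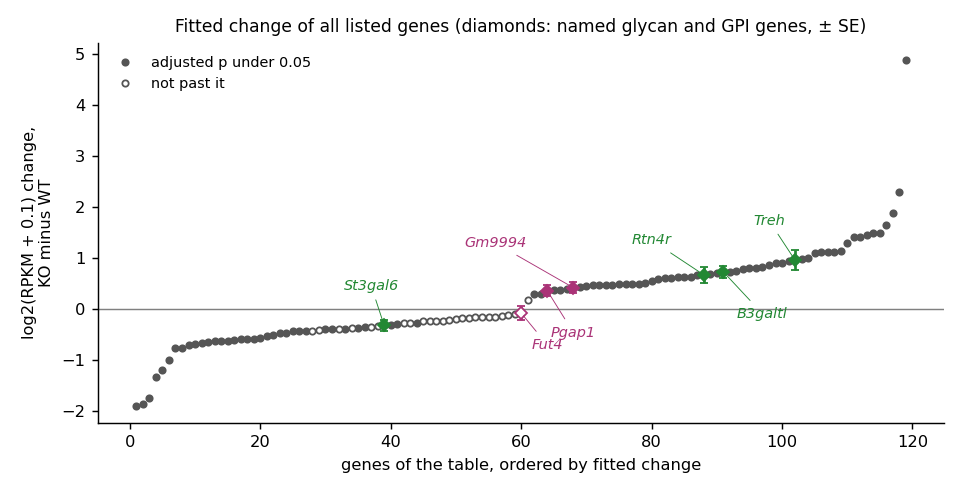
Change in log2(RPKM + 0.1), KO minus WT, of the 119 listed genes ordered by that change; filled points have a limma adjusted p under 0.05, and diamonds with SE bars mark Fut4, Gm9994 and Pgap1 (purple) and the 4 other glycan or GPI genes (green). Fut4 sits at -0.07, the median of all genes. On this scale Gm9994 at 0.43 and Pgap1 at 0.37 sit at the low end of the genes that were higher in KO. The 0.1 added to each value compresses the change of Gm9994.

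Markers of other cells could be followed only as far as the table lists them. It held 7 of 43 markers, and none of neutrophils and other myeloid cells, which also express Fut4, nor of lymphocytes, enterocytes, goblet cells or smooth muscle, so the tissue label could not be checked against enterocyte markers. Of 7 Paneth cell markers 5 were listed (Ang4, Itln1, Defa21, Defa22 and Defa24). All 5 passed the limma threshold as lower in KO, beside 30.3% of all listed genes that were called lower. The marker lists were chosen with earlier results of these data known, so these counts are not independent evidence. The Paneth markers had a summed level of 3358 to 4731 RPKM in WT and 2716 to 3626 RPKM in KO. Both listed pancreatic acinar markers of 6, Clps and Pnliprp2, also passed as lower, with sums of 26.2 to 37.1 RPKM in WT and 20.1 to 27.0 RPKM in KO. None of these genes was at 0 in any library. Their part in the values of Fut4, Gm9994 and Pgap1 was not tested.

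Within the genotypes, the 3 genes followed different genes of the table. With the group mean removed on the log2(RPKM + 0.1) scale, Pearson's r over the 8 libraries was 0.52 for Fut4 and Gm9994, 0.51 for Fut4 and Pgap1, and 0.12 for Gm9994 and Pgap1. The 3 genes most like Fut4 were Spg20 (r = 0.96), 2010106G01Rik (r = 0.92) and Aplp1 (r = 0.92). For Gm9994 they were Nnt (r = 0.85), Acer1 (r = 0.84) and S100a6 (r = 0.82), and for Pgap1 they were Clca6 (r = 0.91), Adcy8 (r = 0.90) and Itga2 (r = 0.86). These values describe 8 libraries that share the WT pairs and the scaling described above, and the genes were picked as the highest of all other listed genes.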

How the data were processed

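RNA-seq of whole SI tissue was analysed in 8 libraries, 4 WT and 4 KO, grouped by their genotype labels. The labels do not say that libraries came from separate animals, so p-values measure the spread between these samples. Per the labels and the study's methods, the authors trimmed adapters with Trim Galore 0.4.1, aligned to GRCm38 with HISAT2 2.0.1, counted uniquely mapped reads in SeqMonk and deposited RPKM for the 119 genes that DESeq2 called at a false discovery rate under 0.05. Strandedness and read length were not given in the sources used here. The table also held the authors' group means and false discovery rates, which were not used.

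The RPKM were multiplied by genomic span and a fitted depth, which gave whole reads (within 0.05) for all 939 values above 0, although the methods describe counting over exons. The reads served voom, the levels per kilobase of exon and the share of mapped reads held by the 119 genes. They also gave the counting coefficients of variation and counting intervals (exact Poisson, 95%), which cover counting error only. The 8 depths planted in simulated data were all recovered.

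limma 3.58.1 in R 4.3.3 was fitted to log2(RPKM + 0.1) over all 119 genes, with genotype as the only term. On simulated data of 119 genes for the KO against WT comparison it recovered 95.4% of the changed genes. Of its calls, 1.72% were of unchanged genes. Each planted change was 1 on the log2 scale, with independent noise in every library and no WT pairs. The fitted changes of Gm9994 (0.43), Pgap1 (0.37) and Fut4 (-0.07) were smaller, so the share recovered does not hold for them. Single values and ratios were tested with exact permutation tests (scipy 1.17.1). Alternatives were other pseudocounts (0.01 and 1), scalings, voom, an intensity trend, a replicate block, filters on RPKM (0.05 and 0.5), a threshold of 0.01 and leaving out libraries. Figures were drawn with matplotlib 3.10.9.

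Annotation came from GENCODE release M21 and RefSeq (GRCm38.p6). The 3 genes, the pathway and marker lists and the tests were chosen with earlier results of these data known. Named were the 3 genes, Smarcad1, all listed pathway and marker genes in the table, the 3 genes most like each of the 3 over the libraries, and genomic neighbours or copies.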

Additional observations from a re-analysis of the deposited data

Results flagged for a closer look

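1 of 22 groups of 4 libraries examined, among the named glycan and GPI genes, Smarcad1 and the ratios, held a library far from the rest of its group. For the log2 ratio of Gm9994 to Pgap1 in KO, KO4 lay at -2.54 and the other 3 KO libraries between -1.87 and -1.79, so that the gap to the nearest was 0.887 of the whole range, above Dixon's 95% critical value for 4 samples. Chance flags about 1 in 20 such groups, or 1.1 of 22. Neither gene alone passed that value in KO: the same quantity was 0.674 for Gm9994 RPKM, where KO4 was lowest, and 0.517 for Pgap1 RPKM, where KO4 was highest.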

How the results depend on the processing

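Gm9994 kept its direction and its call under all 19 alternatives, with changes from 0.07 (pseudocount 1) to 0.99 (voom), both limma fits. Fut4 was called lower with median-ratio scaling (-0.22, limma, or -1.14 RPKM by the exact permutation test) and without WT1 and WT4 (-0.27), and turned to 0.13 without WT2 and WT3. Pgap1 lost its call at 0.21 with KO lowered by 0.2, at 0.27 without WT1 and WT4, and at a threshold of 0.01 (change 0.37). Its change was 0.13 with a pseudocount of 1. Called genes among the 3 numbered 1 with KO lowered by 0.2 (beside 104 of 119, 52 higher and 52 lower), 1 at a threshold of 0.01 and 0 with a mean RPKM of at least 0.5, which only Fut4 reached. With KO lowered, 1 of the 3 had its groups apart, beside 77.3% of all genes. Calls among all genes were 62 at 0.01 and 56 of 77 at a mean RPKM of at least 0.5. The causes were not tested.

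Leaving out 1 library at a time, the fitted changes ran from -0.17 to -0.002 for Fut4, 0.38 to 0.48 for Gm9994 (limma adjusted p from 0.00598 to 0.0171) and 0.32 to 0.45 for Pgap1 (0.00649 to 0.0406), and 86 to 99 genes were called. Of the 4 other pathway genes 3 or 4 were called.

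It is not known if replicate numbers pair the libraries. Deviations of same-numbered libraries correlated at 0.27, 0.22, -0.11 and -0.03 over 76 genes, which cannot settle it, as these genes were selected for a difference. With the replicate block, 90 genes were called and both calls remained (limma adjusted p = 0.00984 for Gm9994 and 0.0273 for Pgap1). The sign-flip test of the replicate block gave p = 0.125, its smallest possible value with 4 exact pairs, for the log2 ratio differences of 0.54 (Pgap1 to Fut4) and 1.06 (Gm9994 to Fut4).

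Depth limits Gm9994 most, with as few as 65 reads in a library.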
